A study of Mus musculus with 10 samples.

Results

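The 10 genes described here regulate exit from the cell cycle: the Cip/Kip inhibitors Cdkn1a, Cdkn1b and Cdkn1c, the INK4 inhibitors Cdkn2c and Cdkn2d, the pocket proteins Rb1 and Rbl1, and the D cyclins Ccnd1, Ccnd2 and Ccnd3. They were taken by gene symbol and not by a cut on their measured values, though with earlier results of these data known. The source was 4 deposited tables that list 23417 genes for the Huwe1 knockdowns and 23431 genes for USP10 overexpression. All 10 were found in each table.

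As background, D cyclins bind the kinases CDK4 and CDK6, and the active complexes phosphorylate the retinoblastoma protein and its relatives, which releases E2F transcription factors to switch on genes of DNA replication. INK4 proteins bind these kinases directly, whereas Cip/Kip proteins bind complexes of cyclins with several kinases. When myoblasts differentiate into muscle they leave the cell cycle for good, and p21 (encoded by Cdkn1a), p57 (Cdkn1c), the retinoblastoma protein (Rb1) and cyclin D3 (Ccnd3) are known for their roles in that exit, while cyclin D1 (Ccnd1) is typical of dividing myoblasts.

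The study asked how the ubiquitin ligase Huwe1 and the deubiquitinase USP10, which act on the TATA-binding protein, affect transcription while C2C12 cells become muscle. C2C12 is a mouse myoblast line that fuses into myotubes in medium with little serum. Polyadenylated RNA of 10 libraries was sequenced. At day 0, in growth medium, wildtype cells were set against 2 Huwe1 knockdown libraries. At day 6 of differentiation, wildtype cells were set against 2 libraries labelled with the same pair of hairpins. At day 8, control myotubes, labelled as given a non-targeting RNA but named wild type in the file header, were set against 2 knockdown libraries labelled with another pair of hairpins. The methods list only this last pair, for myoblasts and myotubes alike, so which hairpins were used at day 0 and day 6 is given by the labels alone. At day 8 each hairpin was delivered by lentivirus to myotubes already formed, whereas myoblasts had been infected before differentiation, and both were selected with puromycin. The USP10 library came from day 6 cells carrying a USP10 cDNA under the EF1a promoter, described as a stable line, and stood against 1 control column. The day 0 and day 6 controls are labelled wildtype. At these times virus and selection therefore cannot be told apart from the knockdown, nor the making of a stable line from USP10. Each knockdown library had its own hairpin, and the knockdown libraries of a time were pooled into 1 value per gene. There was thus 1 value per condition, no spread between replicates and no test, and every ratio below compares these libraries only.

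Values are FPKM, fragments scaled to transcript length and to library size. A ratio is the log2 ratio of treated to control after adding 0.01 FPKM to both, so that changes of weakly expressed genes come out too small. A gene was kept in a table when either of its columns reached 1 FPKM, and a gene was counted as higher or lower when the ratio reached 2-fold. The targeted genes moved with their labels: Huwe1 went from 38.3 to 15.2 FPKM at day 0, from 35.1 to 21.9 at day 6 and from 55.4 to 33.0 at day 8, and Usp10 from 10.3 to 38.3 FPKM in the USP10 table. The Huwe1 ratios at day 6 and day 8, -0.68 and -0.75, were under 2-fold, at percentiles 20.4 and 14.0 of the genes kept. Usp10 was also higher in the day 6 Huwe1 knockdown, at 35.4 FPKM against 13.2 FPKM in its control. In the day 0 control Usp10 was at 68.5 FPKM. Estimated depth was between 7780000 fragments (control column, USP10 table) and 29900000 (day 6 control, Huwe1 table), and could not be had for the pooled columns. Those 2 controls carry the same read file name in the headers but hold different values. Over 11459 genes their log2 difference had a robust SD of 0.63, with 19.9% of genes at least 2-fold apart. The labels used here list 1 wildtype library of day 6, so whether these columns come from separate cultures is not known, and their difference serves below only as a yardstick for how far the day 6 values depend on the control. Muscle markers were low at day 0 and high later: the summed FPKM of 10 markers was 388 at day 0 (control) and between 6605 and 14186 in the day 6 and day 8 controls, and myogenin (Myog) was at 0.164 FPKM at day 0 and 619 FPKM at day 6 in the controls of the Huwe1 tables.

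The bases in front of the transcription start are shown for Cdkn1a, Ccnd3 and Rbl1, as 1 inhibitor, 1 cyclin and 1 pocket protein among the 6 genes that were 2-fold lower at day 8, because the protein at the centre of the study binds TATA elements. Each window is the 250 bases before a RefSeq start site, written 5′ to 3′ on the strand of the gene, in build GRCm38.p6. Windows were at hand for 6 of the 10 genes (9 windows), that is, for all but Ccnd1, Ccnd2, Cdkn1c and Rb1. Capitals mark, on either strand, TATAAA, the E-boxes CAGCTG and CACCTG, the E2F motif forms TTTCCCGC and TTTGGCGC, the GC box GGGCGG and CCAAT.
Cdkn1a, chr17:29090729-29090978, plus strand: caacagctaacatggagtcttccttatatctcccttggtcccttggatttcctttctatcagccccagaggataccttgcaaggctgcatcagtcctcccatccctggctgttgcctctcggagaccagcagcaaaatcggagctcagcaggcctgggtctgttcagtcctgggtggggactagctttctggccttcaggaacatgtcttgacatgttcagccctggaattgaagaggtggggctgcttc
Cdkn1a, chr17:29093519-29093768, plus strand: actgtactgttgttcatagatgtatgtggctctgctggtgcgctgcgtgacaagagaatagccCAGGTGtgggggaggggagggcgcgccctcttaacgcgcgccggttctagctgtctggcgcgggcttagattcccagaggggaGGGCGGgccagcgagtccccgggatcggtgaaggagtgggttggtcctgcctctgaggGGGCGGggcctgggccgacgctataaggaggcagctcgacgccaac
Ccnd3, chr17:47504801-47505050, plus strand: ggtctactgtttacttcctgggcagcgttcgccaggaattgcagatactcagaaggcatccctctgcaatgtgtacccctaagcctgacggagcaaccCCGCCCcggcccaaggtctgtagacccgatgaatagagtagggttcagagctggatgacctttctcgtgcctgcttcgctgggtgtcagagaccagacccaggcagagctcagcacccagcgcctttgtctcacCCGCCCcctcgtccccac
Ccnd3, chr17:47593217-47593466, plus strand: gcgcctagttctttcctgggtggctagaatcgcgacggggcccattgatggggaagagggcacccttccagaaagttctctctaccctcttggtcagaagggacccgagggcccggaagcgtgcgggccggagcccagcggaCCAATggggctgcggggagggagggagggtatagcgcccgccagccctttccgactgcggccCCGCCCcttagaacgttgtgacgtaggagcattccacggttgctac
Rbl1, chr2:157204535-157204784, minus strand: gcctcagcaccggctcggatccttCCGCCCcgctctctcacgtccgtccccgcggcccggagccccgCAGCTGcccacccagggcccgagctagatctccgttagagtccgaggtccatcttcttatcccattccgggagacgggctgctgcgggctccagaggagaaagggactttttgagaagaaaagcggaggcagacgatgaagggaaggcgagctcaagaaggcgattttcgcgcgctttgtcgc
The first Cdkn1a window held none of these motifs, and the second held CACCTG at -187 and GGGCGG at -104 and -46 from the start site. Ccnd3 had GGGCGG at -152 and -18 in one window, and GGGCGG at -46 with CCAAT at -108 in the other. Rbl1 had CAGCTG at -183 and GGGCGG at -226. None of the 9 windows held TATAAA, TTTCCCGC or TTTGGCGC, which occur in 12.4%, 0.895% and 0.417% of all 32851 RefSeq windows of this length. Only these exact letters were searched, so whether a window holds another form of a TATA or E2F motif is not counted. Near matches stand unmarked in the windows shown: tataag in the second Cdkn1a window and tttcgcgc in the Rbl1 window. GGGCGG occurs in 32.7%, CCAAT in 33.8%, CAGCTG in 13.0% and CACCTG in 17.2% of them. CAGCTG and CACCTG are both cases of the E-box CANNTG, which 66.2% of windows hold. A match of letters is a description of the window.

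After Huwe1 knockdown in growth medium few genes of any kind changed 2-fold, and 0 of the cell cycle exit genes kept did. The largest ratio among them was 0.55, for Ccnd1, at percentile 94.5 of the genes kept. At day 6 the knockdown held far more cyclin D1 and D2 RNA than the control and less p21 and p57 RNA, and in day 8 myotubes most of the 10 genes were lower. The USP10 library at day 6 also held more cyclin D1 and D2 and less p57 RNA than its control. At day 0, 9 of the 10 genes were kept and 0 reached 2-fold in either direction, beside 1.90% of 10874 genes higher and 1.69% lower (3.60% in all). At day 6, 3 of 10 were higher (Rbl1, Ccnd1 and Ccnd2) and 2 lower (Cdkn1a and Cdkn1c), beside 17.6% of 11695 genes higher and 13.4% lower (31.1% in all). Against the control of the USP10 table, centred on the median gene, Cdkn1a (-0.57) and Rbl1 (0.39) did not reach 2-fold. Ccnd1 (2.67), Ccnd2 (1.54) and Cdkn1c (-6.69) still did. At day 8, 0 of 10 were higher and 6 lower (Cdkn1a, Cdkn1c, Cdkn2c, Cdkn2d, Rbl1 and Ccnd3), beside 7.89% of 11755 genes higher and 10.0% lower (17.9% in all). Their median log2 ratio at day 8 was -1.02, where the median of all genes was 0.00. With USP10, 2 of 10 were higher (Ccnd1 and Ccnd2) and 1 lower (Cdkn1c), beside 9.70% of 11482 genes higher and 10.0% lower (19.7% in all). In RNA from whole cultures, fewer cells of a type and less RNA per cell cannot be told apart.

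**Figure D1:**
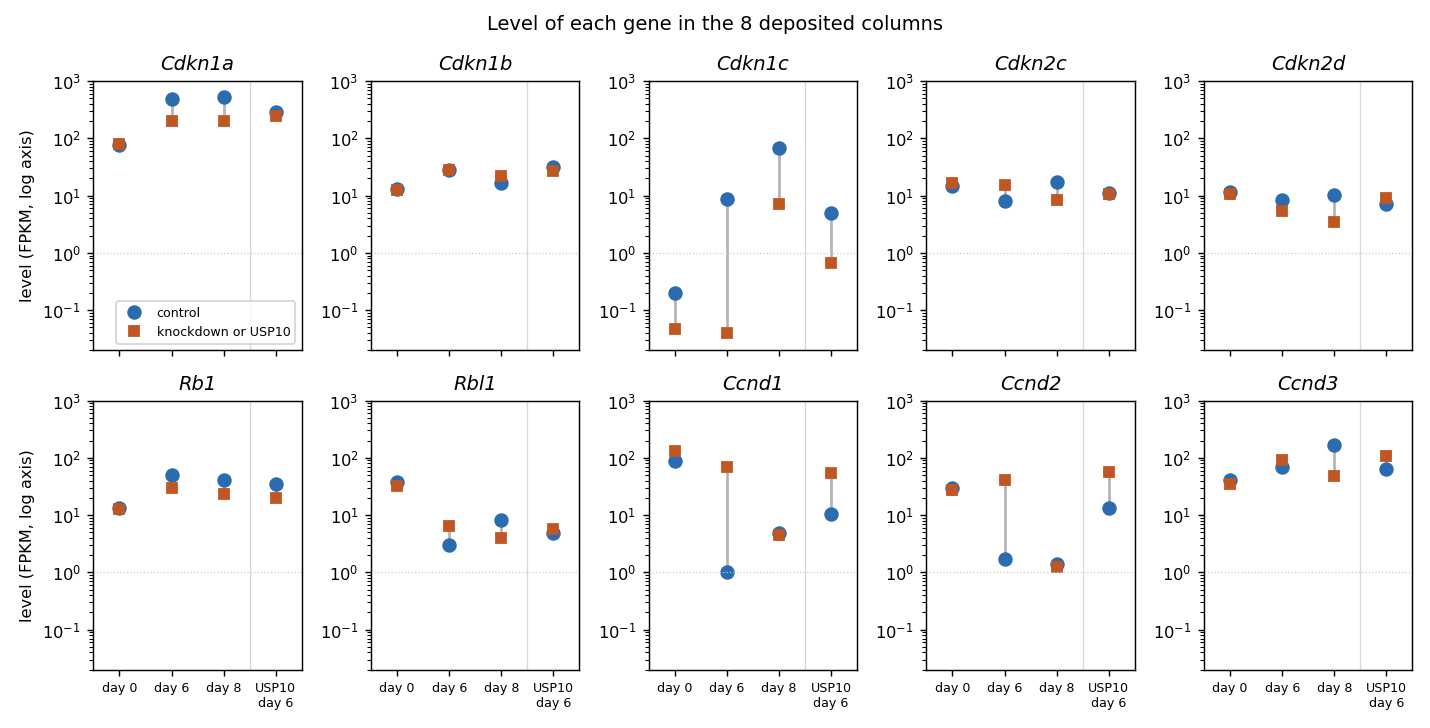
Level of each of the 10 genes in FPKM (log axis) at day 0, day 6 and day 8 of the Huwe1 tables and, right of the grey line, in the USP10 table. Circles are control columns, squares are knockdown or USP10 columns, each 1 value with no error. Ccnd1 and Ccnd2 squares lie far above their circles at day 6 in both tables, and Cdkn1c squares lie below theirs in all 4.

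**Figure D2:**
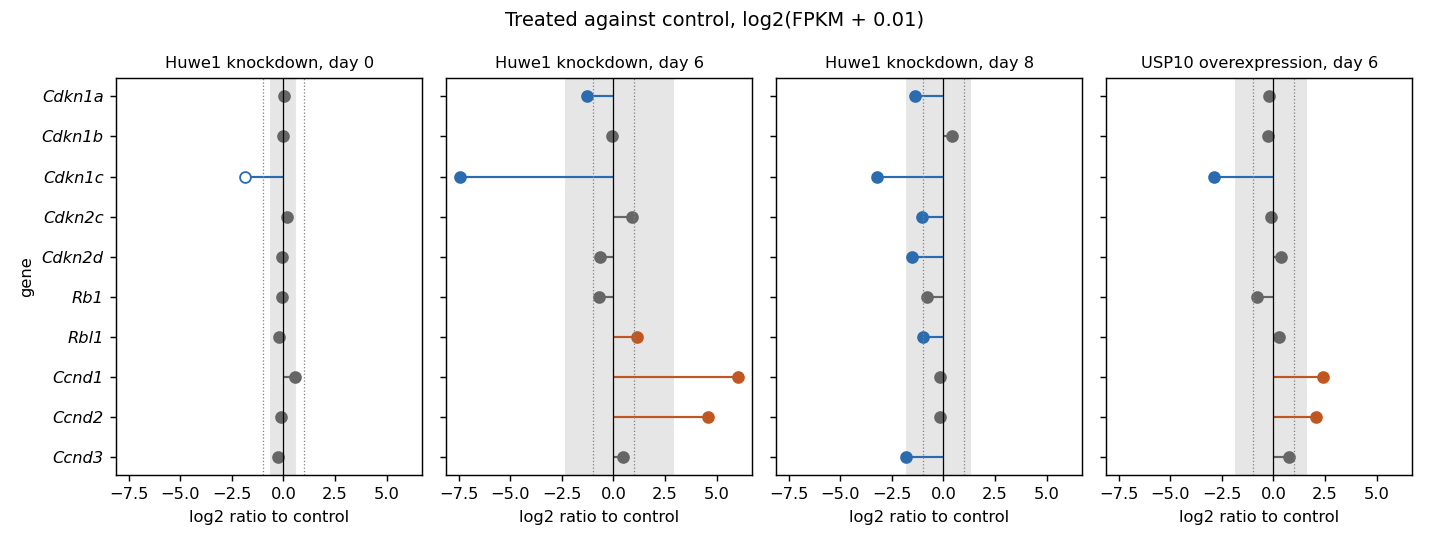
Log2 ratio of treated to control FPKM (x axis, 0.01 added) for each gene (y axis) in the 4 comparisons. Dotted lines mark 2-fold, grey bands span the 5th to 95th percentile of all genes kept, red and blue points are at least 2-fold higher and lower, and the open point is a gene under 1 FPKM in both columns. At day 8, 6 of the 10 points are blue and none is red.

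Among the Cip/Kip inhibitors, Cdkn1a, which encodes p21 and lies at chr17:29090979-29100722 (plus strand), was the most abundant of the 10 genes in every column but those of day 0. Its level was 77.8 FPKM (control) and 80.7 FPKM (knockdown) at day 0, 491 and 201 FPKM at day 6, and 522 and 200.4 FPKM at day 8. In the USP10 table it was 286 FPKM (control) and 248 FPKM (USP10). The day 6 and day 8 knockdown columns thus lay below both day 6 controls and the day 8 control, and above both day 0 columns. The log2 ratio was 0.05 at day 0, -1.29 at day 6, -1.38 at day 8 and -0.20 with USP10. The 2 day 6 controls themselves differed 1.72-fold for Cdkn1a. Against the control of the USP10 table, after centring on the median gene, the day 6 knockdown ratio was -0.57 and no longer reached 2-fold.

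Cdkn1c encodes p57, an imprinted inhibitor at chr7:143458339-143461059 (minus strand), and was lower in the treated column of every table. The control levels were 0.197 FPKM at day 0, 8.56 FPKM at day 6, 67.7 FPKM at day 8 and 4.95 FPKM in the USP10 table. The treated levels were 0.0477, 0.0400, 7.26 and 0.658 FPKM in the same order. The day 6 knockdown column was thus as low as the day 0 columns, and the day 8 knockdown column was close to the day 6 control. These are separate knockdowns, the one of day 8 made in formed myotubes, and not 1 course in time. The log2 ratios were -7.42 at day 6, -3.22 at day 8 and -2.89 with USP10. The day 6 ratio compares 486 estimated control fragments with a level near what a few fragments give, so its size depends on the constant added: -5.95 with 0.1 FPKM and -3.20 with 1 FPKM. The USP10 value rested on 34.4 estimated fragments, with a 95% Poisson interval of 0.457 to 0.917 FPKM that covers counting error only. At day 0 the gene was under 1 FPKM in both columns, with 8.16 estimated fragments in the control, and was not counted.

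Cdkn1b encodes p27 and lies at chr6:134920401-134925525 (plus strand). Its control and treated levels were 13.0 and 12.7 FPKM at day 0, 28.5 and 27.7 FPKM at day 6, 16.5 and 21.9 FPKM at day 8, and 32.1 and 27.2 FPKM in the USP10 table. The log2 ratios were -0.03, -0.04, 0.41 and -0.24. Those of day 6, -0.04 and -0.24, were within 0.63, the robust SD over genes of the difference between the 2 day 6 controls. No such yardstick was at hand for day 0 or day 8. As a share of the summed Cip/Kip FPKM in a column, a measure that a shared scaling of the column does not move, Cdkn1b was 5.39% in the day 6 control and 12.1% in the day 6 knockdown, and 2.72% and 9.53% at day 8. The Cdkn1c share went from 1.62% to 0.0175% at day 6 and from 11.2% to 3.16% at day 8.

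The INK4 inhibitors were at or under 17.0 FPKM in every column. Cdkn2c encodes p18 and lies at chr4:109660876-109666756 (minus strand). It was at 14.6 and 16.6 FPKM in control and knockdown at day 0, at 8.13 and 15.4 FPKM at day 6, at 17.0 and 8.25 FPKM at day 8, and at 11.3 and 10.5 FPKM in the USP10 table. The knockdown column was the higher at day 6, with a log2 ratio of 0.92 that stayed under 2-fold, and the lower at day 8, with a ratio of -1.04. With a constant of 1 FPKM the day 8 ratio was -0.96, short of 2-fold, and against the control of the USP10 table, centred, the day 6 ratio was 0.40. All 8 levels of Cdkn2c lay within a 2.09-fold range, the narrowest of the 10 genes.

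Cdkn2d, which encodes p19 and lies at chr9:21288459-21291421 (minus strand), was lower in the knockdown at both later times. Control and treated levels were 11.5 and 10.8 FPKM at day 0, 8.25 and 5.30 FPKM at day 6, 10.2 and 3.51 FPKM at day 8, and 7.02 and 8.98 FPKM in the USP10 table. The log2 ratios were -0.08, -0.64, -1.53 and 0.35. Cdkn2c made up 49.6% of the summed FPKM of these INK4 genes in the day 6 control and 74.4% in the day 6 knockdown. The other INK4 genes, Cdkn2a and Cdkn2b, were listed at 0 in all 6 columns of the Huwe1 tables and stayed at or under 0.161 FPKM in the USP10 table.

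Of the pocket proteins, Rb1, the retinoblastoma gene at chr14:73192858-73325951 (minus strand), was lower in the treated column at day 6 and day 8 and with USP10, each time by under 2-fold. It was at 13.2 and 12.7 FPKM in control and knockdown at day 0, at 49.2 and 30.2 FPKM at day 6, at 40.2 and 23.2 FPKM at day 8, and at 34.6 and 19.9 FPKM in the USP10 table. The log2 ratios were -0.06, -0.70, -0.80 and -0.80. With the controls of the 2 day 6 tables exchanged and centred, the knockdown ratio was -0.25 and the USP10 ratio -1.30, which passes 2-fold. The 3 treated columns of day 6 and day 8 lay below all 3 of their controls and above both day 0 columns. The 2 day 6 controls differed 1.42-fold for Rb1. Lpar6, a receptor gene listed in the same locus, was at or under 8.68 FPKM in every column, and whether strand was used to separate the reads is not given in the sources used here.

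Rbl1 encodes p107, the relative of the retinoblastoma protein typical of cycling cells, and lies at chr2:157145893-157204534 (minus strand). Its levels were 37.5 and 32.8 FPKM in control and knockdown at day 0, 2.95 and 6.54 FPKM at day 6, 8.06 and 4.02 FPKM at day 8, and 4.82 and 5.74 FPKM in the USP10 table. The knockdown column was therefore the higher at day 6, with a log2 ratio of 1.15, and the lower at day 8, by just over 2-fold. With a constant of 1 FPKM in place of 0.01 the day 6 ratio was 0.93, and the day 8 ratio was -0.99 with 0.1 FPKM and -0.85 with 1 FPKM, all short of 2-fold. Against the control of the USP10 table, centred on the median gene, the day 6 ratio was 0.39. Within columns, Rb1 stood at 16.6 times the FPKM of Rbl1 in the day 6 control and at 4.62 times in the day 6 knockdown. That ratio was 0.353 in the day 0 control and 0.387 in the day 0 knockdown. It was 4.99 and 5.76 at day 8, and 7.18 and 3.46 in the control and USP10 columns of the USP10 table.

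The D cyclins held the largest increases. Ccnd1, which encodes cyclin D1 and lies at chr7:144929931-144939831 (minus strand), was at 88.4 FPKM (control) and 129 FPKM (knockdown) at day 0. It was at 1.03 and 69.1 FPKM at day 6, at 4.94 and 4.47 FPKM at day 8, and at 10.4 and 55.4 FPKM in the USP10 table. The day 6 and day 8 columns were thus low in all controls, while both treated day 6 columns were far higher, though below the day 0 levels. The log2 ratio was 0.55 at day 0, which is at percentile 94.5 of the genes kept, 6.06 at day 6, -0.14 at day 8 and 2.41 with USP10. Cyclin D1 was also the gene for which the 2 day 6 controls differed most among the 10, by 10.1-fold, at percentile 97.2 of the differences of all genes. Against the control of the USP10 table, centred, the day 6 knockdown ratio was 2.67, and against the control of the Huwe1 table the USP10 ratio was 5.75, so the direction was the same with either control.

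Ccnd2, which encodes cyclin D2 and lies at chr6:127125162-127152188 (minus strand), was likewise higher in both treated columns at day 6 than in either day 6 control. It was at 29.5 and 27.3 FPKM in control and knockdown at day 0, at 1.69 and 40.5 FPKM at day 6, at 1.39 and 1.23 FPKM at day 8, and at 13.4 and 55.9 FPKM in the USP10 table. Both treated day 6 columns were above every control column. The log2 ratios were -0.11, 4.57, -0.18 and 2.06. The 2 day 6 controls differed 7.88-fold, and with the controls exchanged and centred the ratios were 1.54 for the knockdown and 5.05 for USP10. The transcript 9330179D12Rik, listed in the same locus, was at or under 0.210 FPKM in every column.

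Ccnd3, which encodes cyclin D3 and lies at chr17:47505051-47599689 (plus strand), was the D cyclin with the lowest ratio in myotubes. It was at 41.2 and 34.4 FPKM in control and knockdown at day 0, at 67.9 and 92.6 FPKM at day 6, at 168 and 47.7 FPKM at day 8, and at 63.6 and 108 FPKM in the USP10 table. The log2 ratios were -0.26, 0.45, -1.82 and 0.77, so that only the day 8 ratio reached 2-fold. The day 8 control held the highest level, and the day 8 knockdown lay below all day 6 columns. Cyclin D3 RNA differed 1.07-fold between the 2 day 6 controls. The ribosome biogenesis gene Bysl, listed in the same locus, was at 18.8 and 9.08 FPKM at day 6 and at 19.1 and 13.1 FPKM at day 8, and reads of the overlap could not be separated here.

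The makeup of the D cyclins was read within columns, since a ratio within a column does not depend on how the tables were scaled. Ccnd3 made up 25.9% of the summed D cyclin FPKM in the day 0 control, 96.2% in the day 6 control, 72.7% in the control of the USP10 table and 96.4% in the day 8 control. It made up 18.1% in the day 0 knockdown, 45.8% in the day 6 knockdown, 49.3% with USP10 and 89.3% in the day 8 knockdown. In both treated day 6 columns, therefore, Ccnd1 and Ccnd2 together were as abundant as Ccnd3, or somewhat more so, which held in neither day 6 control. The summed D cyclin level in control and knockdown was 70.7 and 202 FPKM at day 6 and 175 and 53.4 FPKM at day 8, and it was 87.4 FPKM without and 219 FPKM with USP10. Set against this sum, Cdkn1a stood at 6.95 times the D cyclins in the day 6 control and at 0.992 times in the day 6 knockdown. The same ratio was 3.27 and 1.13 in the control and USP10 columns, 0.489 and 0.423 at day 0, and 2.99 and 3.75 at day 8. At day 6 both treated columns had a lower ratio of Cdkn1a to D cyclins than their own control, and at day 8 the knockdown had a higher one.

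**Figure D3:**
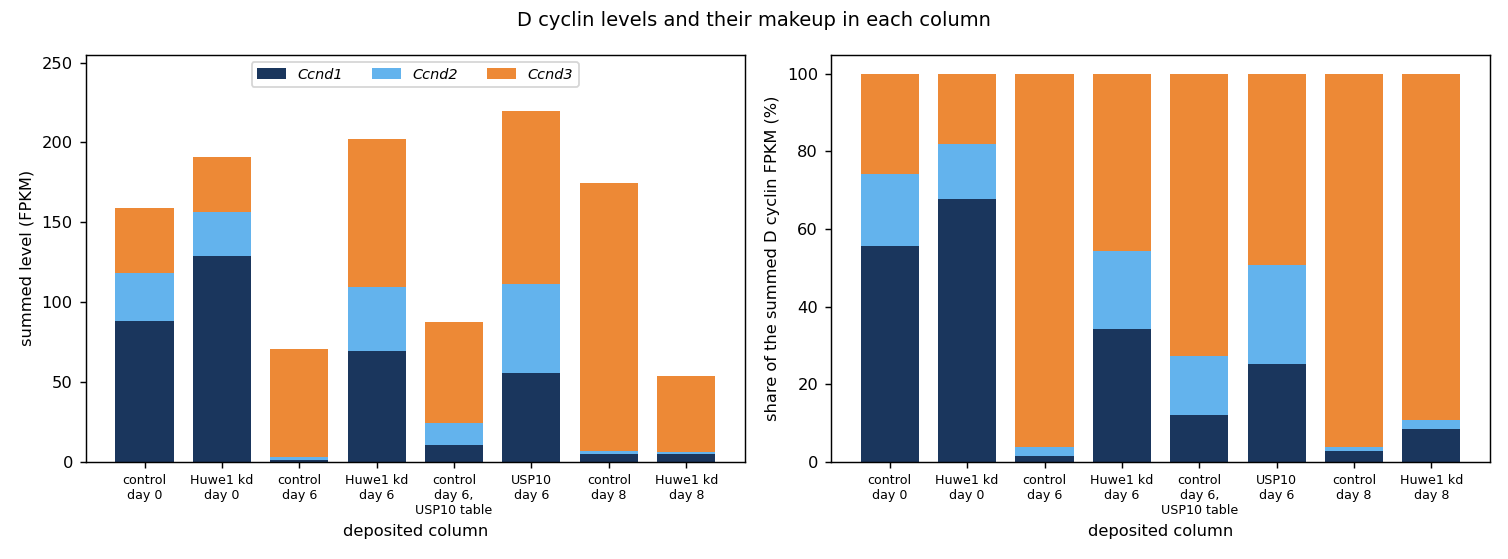
Summed FPKM of Ccnd1, Ccnd2 and Ccnd3 (left) and the share of each in that sum in % (right) for the 8 deposited columns (kd, knockdown). Bars are single values with no error. Ccnd3 is 96.2% of the sum in the day 6 control, 45.8% in the day 6 knockdown and 49.3% with USP10.

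**Figure D4:**
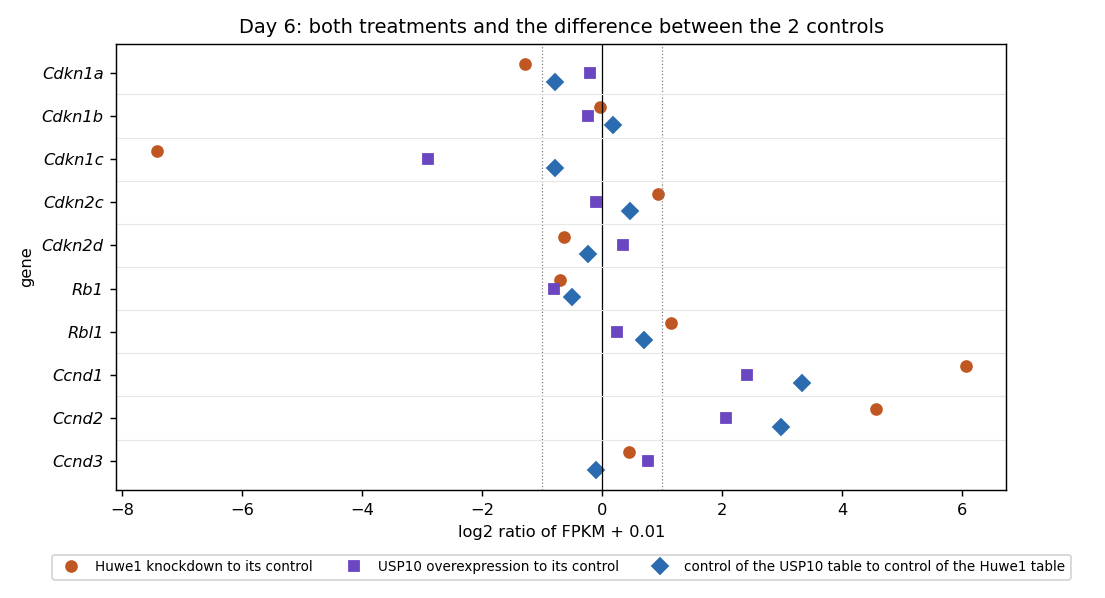
Log2 ratio (x axis) for each gene (y axis) at day 6: Huwe1 knockdown to its control, USP10 to its control, and the control of the USP10 table to the control of the Huwe1 table. Dotted lines mark 2-fold. For Ccnd1 and Ccnd2 the 2 controls are 3.33 and 2.98 apart on the log2 scale, and for the other 8 genes less than 1.

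The course of the 10 genes in the controls gives the background to these ratios, with the limit that each table was normalized separately and that levels across tables are descriptions. Over 9417 genes with at least 1 FPKM in every column, the median gene of a column lay within 0.08 log2 units of the common centre. From the day 0 to the day 6 control, Cdkn1a was 2.66 log2 units higher, Cdkn1b 1.13, Cdkn1c 5.37 and Rb1 1.89, while the log2 differences of level were -3.66 for Rbl1, -6.42 for Ccnd1 and -4.12 for Ccnd2. That is 4 genes higher and 3 lower by at least 2-fold, beside 21.5% of all genes higher and 23.2% lower. The size of the decreases depended on the control. From the day 0 control to the control of the USP10 table, the log2 differences were -2.96 for Rbl1, -3.08 for Ccnd1 and -1.14 for Ccnd2. There too 4 genes were higher and 3 lower, beside 19.2% and 20.9% of all genes. From the day 0 to the day 8 control, 4 were also higher (Cdkn1a, Cdkn1c, Rb1 and Ccnd3) and the same 3 lower, beside 20.0% and 15.7% of all genes. Between the day 0 and the day 6 knockdown columns, the log2 differences of level were 1.31 for Cdkn1a, 1.12 for Cdkn1b, -0.21 for Cdkn1c, 1.25 for Rb1, -2.32 for Rbl1, -0.90 for Ccnd1 and 0.57 for Ccnd2. For the remaining genes they were -0.11 for Cdkn2c, -1.03 for Cdkn2d and 1.43 for Ccnd3, against -0.84, -0.47 and 0.72 in the controls. Cdkn1b thus stood higher at day 6 in control and knockdown alike. Cdkn1c, Ccnd1 and Ccnd2 were less than 2-fold from day 0 in the knockdown but not in the control. For Cdkn2d and Ccnd3 it was the other way round. The share of all genes was not computed for the knockdown columns.

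The other genes of the pathway were read from a list of 36 kinases, cyclins, E2F factors and their partners. At day 0, 0 of 34 genes kept reached 2-fold. At day 6, 4 of 31 were higher and 7 lower, beside 17.6% and 13.4% of all genes, with a median log2 ratio of -0.08. Cdk6, the partner kinase of the D cyclins, went from 1.13 to 17.4 FPKM (log2 ratio 3.93) and the activator E2f1 from 3.29 to 11.7 FPKM (1.83). E2f2, also an activator, went from 15.1 to 3.03 FPKM (-2.32), the atypical repressor E2f8 from 11.1 to 2.79 FPKM (-1.98) and E2f4, which acts with pocket proteins in resting cells, from 36.7 to 16.2 FPKM (-1.18). These E2F ratios depended on the control. Against the control of the USP10 table, centred on the median gene, 4 of 31 pathway genes were higher and 2 lower, and the log2 ratios were 3.01 for Cdk6, 0.77 for E2f1, 1.03 for E2f2, -0.32 for E2f8 and -0.57 for E2f4. E2f2 thus turned from lower to higher, since it was at 15.1 FPKM in one day 6 control and 1.42 FPKM in the other.

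At day 8, 0 of 34 pathway genes were higher and 11 lower, beside 7.89% and 10.0% of all genes, with a median of -0.42. Cyclin A2 (Ccna2), which drives DNA replication, went from 22.0 to 1.96 FPKM (-3.48), E2f2 from 31.8 to 5.09 FPKM (-2.64) and E2f8 from 19.6 to 6.16 FPKM (-1.67). With USP10, 1 of 30 was higher and 4 lower, beside 9.70% and 10.0% of all genes, with a median of -0.26, and Rbl2, which encodes the pocket protein p130, went from 51.5 to 15.6 FPKM (-1.73).

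Of 18 E2F target and proliferation genes, 0 of 18 kept reached 2-fold at day 0 (median 0.20). At day 6, 9 of 16 were higher and 0 lower (median 1.31), beside 17.6% and 13.4% of all genes. At day 8, 0 of 18 were higher and 12 lower (median -1.37), beside 7.89% and 10.0%, while with USP10 0 of 15 reached 2-fold (median -0.05). The median of all genes kept was within 0.05 of 0 in each comparison. The day 6 count rested on the control: with the control of the USP10 table, centred, 1 of 16 was higher and 0 lower (median 0.04), and in the USP10 column 7 of 15 were higher and 1 lower against the control of the Huwe1 table (median 0.99). Levels at day 6 were low: the replication helicase gene Mcm6 went from 7.81 to 18.0 FPKM, against 18.7 FPKM in the control of the USP10 table and 122 FPKM in cells of the day 0 control. At day 8 the proliferation marker Mki67 went from 46.7 to 2.82 FPKM (-4.05), the mitotic cyclin Ccnb1 from 12.9 to 0.930 FPKM (-3.78) and the topoisomerase Top2a from 59.1 to 5.97 FPKM (-3.30). The day 8 control thus held more RNA of these genes than the day 6 control, where Mki67 was at 0.629 FPKM and Top2a at 1.26 FPKM. The part of dividing cells in the day 8 values of the cell cycle exit genes was not tested.

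**Figure D5:**
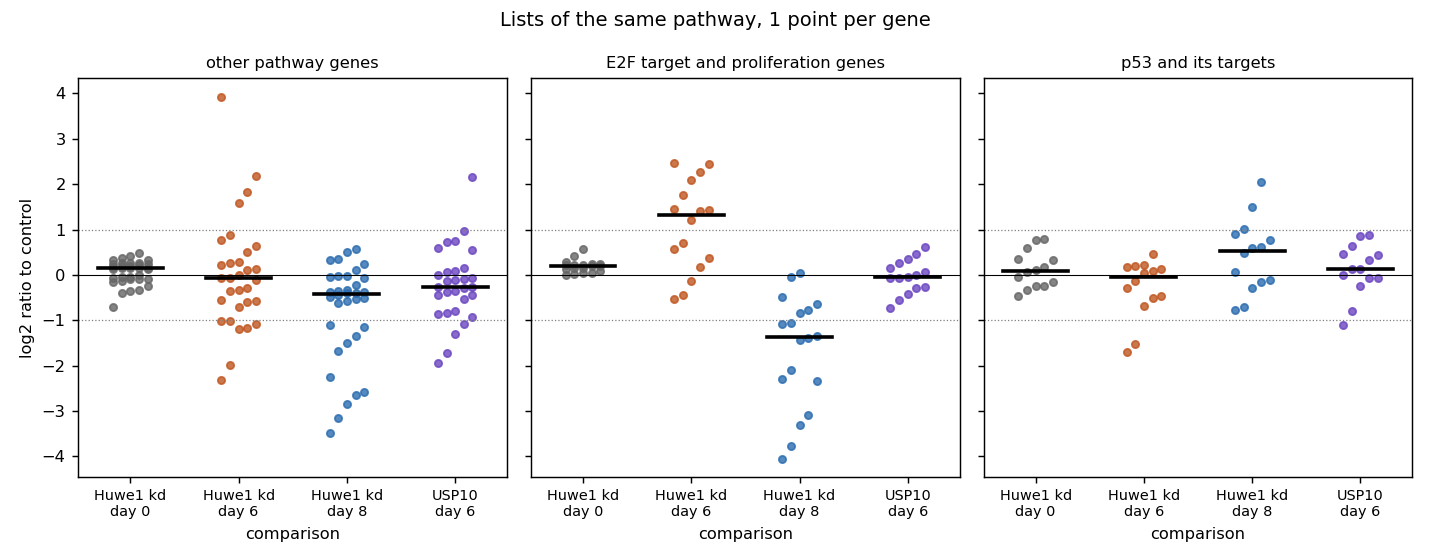
Log2 ratio of treated to control FPKM (y axis) for each gene kept of the other pathway genes, the E2F target and proliferation genes, and p53 with its targets, in the 4 comparisons (x axis; kd, knockdown). Each point is 1 gene, black bars are medians and dotted lines mark 2-fold. The proliferation genes have a median of 1.31 at day 6 (0.04 with the control of the USP10 table), -1.37 at day 8 and -0.05 with USP10 (0.99 with the control of the Huwe1 table).

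Cdkn1a is a well known target of p53, so 14 p53 genes were read beside it. At day 0, 0 of 14 reached 2-fold. At day 6, 0 were higher and 2 lower, beside 17.6% and 13.4% of all genes, the stress gene Gadd45a from 1331 to 409 FPKM (-1.70) and the receptor gene Eda2r from 155 to 53.8 FPKM (-1.52). At day 8, 3 were higher and 0 lower, beside 7.89% and 10.0% of all genes: Trp53inp1 went from 5.36 to 22.1 FPKM (2.04), Phlda3 from 79.2 to 223 FPKM (1.49) and Btg2 from 10.8 to 21.8 FPKM (1.01). With USP10, 0 were higher and 1 lower, beside 9.70% and 10.0%, Eda2r from 107 to 49.4 FPKM (-1.11). At day 8, when Cdkn1a was lower, the ratios of this list went both ways: 9 were above 0 and 5 below 0, among them Plk2 (-0.76) and Gadd45a (-0.70). The part of p53 in the Cdkn1a values was not tested.

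Markers of cell type moved in the same comparisons. The shares of all genes to set beside their counts were 17.6% higher and 13.4% lower at day 6, and 7.89% and 10.0% at day 8. They were 9.70% and 10.0% with USP10, and 1.90% and 1.69% at day 0. Of 10 muscle markers, 8 were lower and 1 higher at day 6, where their summed level went from 14186 to 3048 FPKM. At day 8, 8 were lower and 0 higher (11854 to 2965 FPKM), and with USP10, 6 were lower and 1 higher (6605 to 3454 FPKM). At day 0, 1 of 5 kept was lower (Myod1, 21.7 to 9.30 FPKM) and 0 higher. The median log2 ratio of those kept was -0.95, and the sum of the 10 went from 388 to 201 FPKM. Myog, the factor that starts terminal differentiation, went from 619 to 27.1 FPKM at day 6 and from 305 to 28.8 FPKM with USP10, while the myoblast factor Myf5 went from 3.51 to 18.5 FPKM and from 4.79 to 20.2 FPKM. The 2 day 6 controls differed in the muscle sum as well, at 14186 and 6605 FPKM, and with the controls exchanged 7 muscle markers were lower in the knockdown and 8 with USP10. All 5 fibroblast markers were higher at day 6 (121 to 3790 FPKM in sum, of which the proteoglycan gene Dcn made up 7.94 and 2987 FPKM), and 2 of 5 with USP10 (452 to 3609 FPKM). With the controls exchanged these counts were 2 of 5 for the knockdown and 5 of 5 for USP10. Over all genes, the exchanged controls gave 12.1% higher and 10.6% lower for the knockdown, and 17.6% and 15.3% for USP10. At day 8, 2 of 4 kept were higher (487 to 792 FPKM), and at day 0, 1 of 4 (317 to 231 FPKM).

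Markers of other cells were near 0. The summed level was at or under 4.68 FPKM for 4 adipocyte markers and at or under 4.65 FPKM for 4 macrophage markers in every column, with Adipoq and the macrophage gene Emr1 listed at 0 in all 8. Of 3 endothelial markers, only Cdh5 passed 1 FPKM, with 13.5 FPKM in the day 0 control and 0.0241 and 6.83 FPKM in the day 6 control and knockdown. Of 10 housekeeping genes, 3 were higher at day 6 (B2m, Actb and Tubb5) and 2 with USP10 (Tbp and B2m), and 0 reached 2-fold at day 0 or day 8. The shares of all genes higher were 17.6% at day 6 and 9.70% with USP10. With the controls exchanged, 2 housekeeping genes were higher in the knockdown and 4 with USP10, beside 12.1% and 17.6% of all genes. The part of these shifts in cell markers in the values of the 10 genes was not tested.

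The genes with the most similar course over the 8 columns were found by the root mean square difference of log2 levels, each gene centred on its own mean, among 9417 genes; the 8 columns are not independent, since they come from 4 tables that each share a scaling. Rbl1 was nearest to Mcm6, at 0.251 log2 units, and to the nucleotide synthesis gene Tyms, at 0.270. Rb1 was nearest to Arhgap28 and Stat5b, both at 0.145, and Cdkn1a to St3gal5 at 0.207 and Macf1 at 0.236. Ccnd2 had Thbs2 as its nearest gene at 0.449, and Ccnd1 had Gm773 at 0.677. The nearest gene to Ccnd3 was 4930511M06Rik at 0.302, to Cdkn1b Mut at 0.115, to Cdkn2c Pip4k2a at 0.167 and to Cdkn2d Kars at 0.201. For Cdkn1c the nearest gene was Capn6 at 1.72. Only genes with at least 1 FPKM in every column were searched, and Cdkn1c itself fell as low as 0.0400 FPKM. Genes that were as low in the same columns were left out, so whether Cdkn1c has a close neighbour was not tested. Among the 10 genes themselves, the closest pairs were Cdkn1a with Rb1 at 0.407, Cdkn2c with Cdkn2d at 0.482 and Cdkn1b with Rb1 at 0.504.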

How the data were processed

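C2C12 RNA-seq of 10 libraries was used as 4 deposited tables with 8 columns of FPKM. According to the study's methods and the submitters' processing notes, the authors selected polyadenylated RNA with oligo(dT), made directional ScriptSeq libraries for Illumina sequencing, mapped reads with Tophat (the notes name Bowtie2 and build mm10) and obtained the deposited FPKM values with Cuffdiff, which scales fragments to transcript length and depth; versions are not given in the sources used here. The knockdown libraries were pooled by the authors, and each table was normalized on its own, so ratios were taken within a table. The tables also hold Cuffdiff fold changes, test scores, p-values and q-values of the authors' comparisons, which were not used.

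Here log2 ratios of FPKM + 0.01 were computed for genes that reached 1 FPKM in either column, and genes at least 2-fold apart were counted. With 1 value per condition no test was made. The control column of the USP10 table was taken as a day 6 control by its header. Depth was estimated from the lowest FPKM steps of genes with 1 transcript of at least 1500 bases. Intervals are exact 95% Poisson limits. Sequences and positions came from RefSeq (GRCm38.p6), whose names and loci matched the files for all 10 genes, and transcripts from GENCODE M21. The marker genes Mymk and Adgre1 were matched by their older symbols Tmem8c and Emr1. Named genes were the 10 members, Huwe1 and Usp10, up to 3 genes per list and direction among those at least 2-fold changed with at least 10 FPKM in 1 column, and up to 3 genes of nearest course per member. A few further genes (Cdkn2a, Cdkn2b, genes of shared loci, and single markers) are named as context and were chosen after their values were seen. The members and lists were chosen with earlier results of these data known. Alternatives were other constants, filters, thresholds and scalings, and, added after seeing the data, the control of the other day 6 table, also for the lists. Scripts were tested on simulated data. Python 3.11.15, numpy 2.4.6, pandas 2.3.3, scipy 1.17.1 and matplotlib 3.10.9 were used.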

Additional observations from a re-analysis of the deposited data

Results flagged for a closer look

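Cdkn2c and Rbl1 stood out because their ratios of Huwe1 knockdown to control had opposite signs at day 6 and day 8. For Cdkn2c the log2 ratio was 0.92 at day 6 and -1.04 at day 8, a difference of -1.96. For Rbl1 it was 1.15 at day 6, and at day 8 the knockdown was lower by just over 2-fold, a difference of -2.15. With 1 value per condition the difference was not tested for either gene. Both signs rest on small ratios: the day 6 ratio of Cdkn2c was under 2-fold, against the control of the USP10 table the day 6 ratios were 0.40 for Cdkn2c and 0.39 for Rbl1, and with a constant of 1 FPKM the day 8 ratios were -0.96 and -0.85. Day 6 and day 8 also differ, by the labels, in the hairpins and in when the virus was given, and these cannot be told apart from the time. The day 8 control held more Cdkn2c (17.0 against 8.13 FPKM) and more Rbl1 (8.06 against 2.95 FPKM) than the day 6 control, and the 2 knockdown columns held 8.25 and 15.4 FPKM of Cdkn2c and 4.02 and 6.54 FPKM of Rbl1.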

How the results depend on the processing

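The day 6 values depend on which control is used, and Cdkn1c, Cdkn2c and Rbl1 on the constant added, while no ratio of the 10 genes changed direction where it had reached 2-fold. No paired analysis was possible because the knockdown libraries of a table share 1 pooled column, and for the same reason no replicate could be left out. Of the recomputed ratios, 274 moved by less than 0.63 log2 units and 14 by more. With a constant of 1 FPKM the day 6 ratio of Ccnd1 was 5.11 and the USP10 ratio of Cdkn1c was -1.84. A constant of 0.1 FPKM ended the day 8 count of Rbl1, and 1 FPKM those of Rbl1 and Cdkn2c at day 8 and of Rbl1 at day 6, so that 5 and 4 of the 10 genes, in place of 6, were lower at day 8. The count higher at day 6 went from 3 to 2 with 1 FPKM and with the other control (Rbl1). With the control of the other day 6 table, added after seeing the data, the Cdkn1c ratio was -6.69 for the knockdown and -3.67 for USP10, and the USP10 ratios of Cdkn1a and Rbl1 were -0.98 and 0.97. The count of the 10 genes lower by 2-fold was 2 at day 6 and became 1 with at least 1 FPKM in both columns, 1 with the other control and 4 at 1.5-fold. With USP10 it was 1 and became 0 with at least 5 FPKM, 0 with at least 1 FPKM in both columns, 2 at 1.5-fold and 2 with the other control (Cdkn1c and Rb1). At day 0 it was 0 and became 1 without a filter (Cdkn1c). Over all genes, the counts higher and lower were 207 and 184 at day 0, and became 124 and 88 with a constant of 1 FPKM, 117 and 90 with at least 5 FPKM, 91 and 106 with at least 1 FPKM in both columns, and 1710 and 953 without a filter. At day 6 the count higher was 2061 and became 1357 with at least 5 FPKM and 1284 with at least 1 FPKM in both columns, and 3937 higher and 3141 lower without a filter. At day 8 they were 928 and 1180, and became 545 higher with a constant of 1 FPKM, 502 and 771 with at least 5 FPKM, 544 and 783 with at least 1 FPKM in both columns, and 2408 and 3640 without a filter. With USP10 they were 1114 and 1153, and became 740 and 658, 741 and 669, and 2983 and 2880 under the same filters, and 2044 and 1777 with the other control. At a constant of 1 FPKM, Cdkn1b, Cdkn1c, Rb1 and Rbl1 each kept 1 of their 3 nearest genes. Pooled columns give no depth, so the lowest knockdown levels carry no interval.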
